A study of Rattus norvegicus with 36 samples.

Results

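Gpd1, Fbp2, Pfkfb1, Eno3, Aldoa, Pfkm, Hk1 and Hk2 are 8 genes of glycolysis, of its control and of the glycerol phosphate branch. Their probe sets were taken as all those annotated to exactly 1 of these symbols, which gave 18 of the 8799 probe sets of the array, for 8 of its 4737 genes with a probe set of their own. Pfkfb1 had 4 probe sets, Hk1 had 5, Fbp2, Pfkm and Hk2 had 2 each, and Gpd1, Eno3 and Aldoa had 1 each. Of the 5 Hk1 probe sets, 3 were hexokinase control probe sets of the manufacturer. All 18 passed the filter on dim signals, and the probe set of a gene with the highest mean over all arrays is called its leading one.

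Rat extraocular muscle (EOM), the muscle that moves the eye, was compared with leg muscle, 1 sample of gastrocnemius and soleus together, on Affymetrix RG-U34A arrays. Both muscles were sampled at postnatal days 0, 7, 14, 21, 28 and 45, with 3 arrays in each of the 12 groups. The leg sample joins a mostly fast and a mostly slow muscle, and no treatment or altered allele is recorded in either muscle. Strain, sex and the number of animals behind a sample were not given in the sources used here, and p-values here speak to the spread among the deposited samples alone, which may be technical.

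Muscle takes up glucose and traps it by phosphorylation with hexokinases. Phosphofructokinase commits the sugar to glycolysis, aldolase splits it, and enolase forms the precursor of pyruvate. Cytosolic glycerol-3-phosphate dehydrogenase turns a glycolytic intermediate into glycerol phosphate and reoxidises NADH, and fructose bisphosphatase runs the phosphofructokinase step backwards. Fast glycolytic fibres of limb muscle are rich in several of these enzymes, while extraocular muscle is known for its many mitochondria and fatigue resistance.

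The deposited values are intensities on a linear scale, which were turned to log2 after a floor at 100.9. Differences are log2 of EOM minus leg, or of the later minus the earlier age, each ± the standard error of a limma fit to all 36 arrays, with 3 arrays behind each group mean. Adjusted p is the Benjamini-Hochberg value over all 6675 probe sets tested, with a threshold of 0.05. Bulk RNA cannot tell fewer cells of a type from less RNA per cell, and intensities of different probe sets are not compared with each other.

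Several features of the arrays bear on the values below. Myh13, the extraocular myosin, gave 16394 to 35126 in EOM from day 14 onward and 74.9 to 1147 in leg at those ages, which matched the labels. Ckm, the muscle creatine kinase, lay at or under the floor on all arrays of both muscles at days 21 and 28. EOM arrays 1 and 2 at day 21 stood apart from array 3. Of 19 probe sets for which every EOM array lay over 2-fold below every leg array at days 14 and 28, arrays 1 and 2 lay over 2-fold above array 3 for 13, or 68.4%, against 3.97% of all tested probe sets. Among the members, 7 of 18 probe sets had arrays 1 and 2 over 2-fold above array 3, and 1, that of Aldoa, had the opposite. The Gpd1 probe set and both Fbp2 probe sets belong to the 19, to the 13 and to the 7, so the counts overlap. The 19 were picked from these same data. EOM array 3 at day 45 also stood apart, with 9 skeletal muscle markers summing to 87127, 98464 and 187057 on EOM arrays 1 to 3 of that age, Ckm at 607, 727 and 23835, and 3 erythroid markers summing to 7773, 20489 and 40391. The part of array 3 in the day 45 results was not tested, beyond the values without it given below. On array 1 of that group Ckm (606.6), Acta1, the skeletal muscle actin (606.8), and Aldoa (607.3) carried nearly the same number. The Ckm value there, and the marker sum that includes Ckm and Acta1, are not read as transcript levels. Markers of glands and epithelium summed to 19008 to 24305 at day 0 in EOM and 1451 to 2641 in leg, with all 5 genes measured. At day 7 they summed to 5048 to 11365 in EOM and 1536 to 2609 in leg, and at day 21 to 1646.5 to 6130 and 1211.5 to 1563. None of the 5 passed the limma test at day 21, when Lcn2 differed by 1.83 (adjusted p = 0.0683). Krt5, Krt8 and Krt19 differed by 0.14, 0.02 and 0.01 at that age, and Krt18 by -0.67. The sums overlapped at the other ages. The part of such cells in the results below was not tested.

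**Figure D1:**
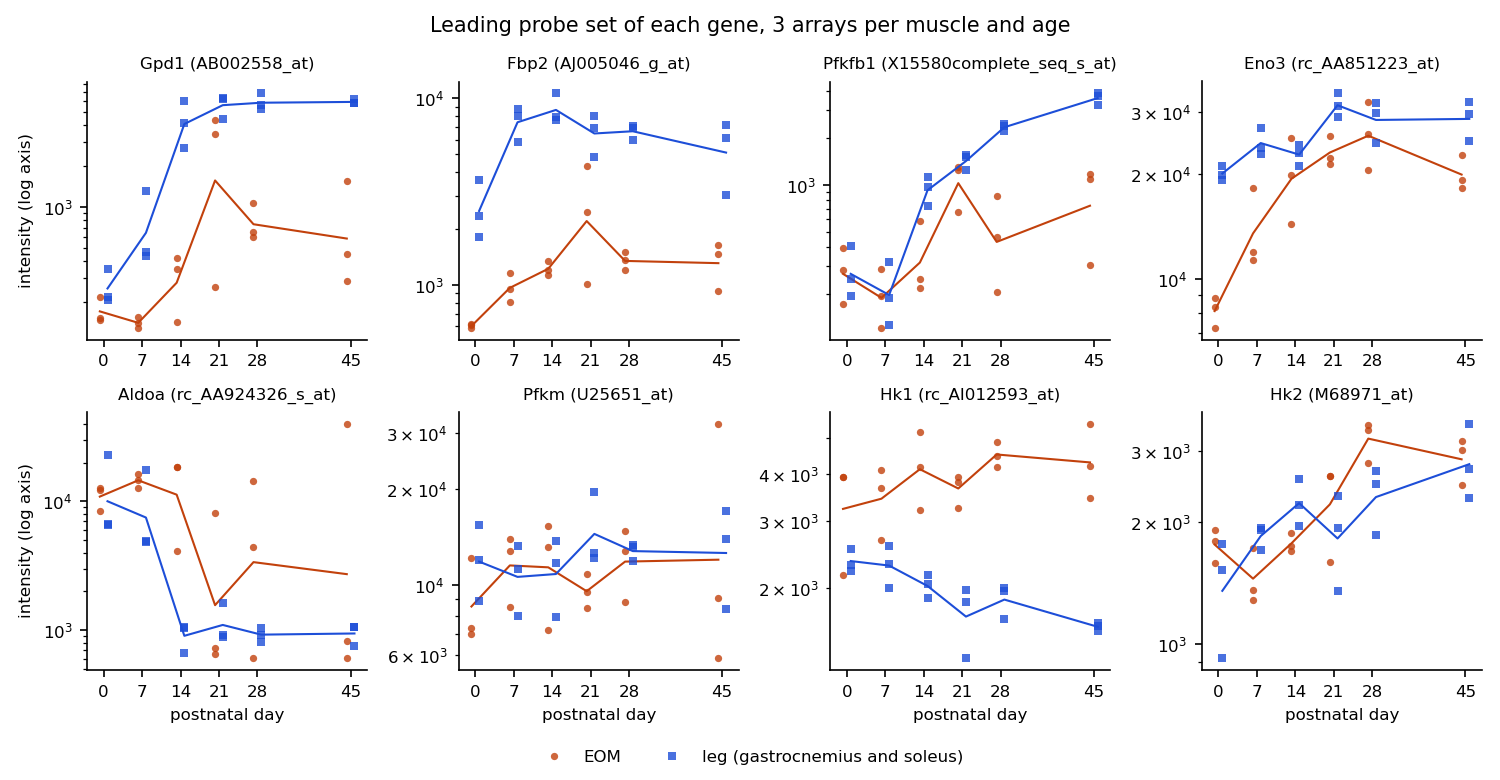
Intensity (log axis) of the leading probe set of each of the 8 genes against postnatal day, with 1 point per array (EOM circles, leg squares) and lines through the group means of the log2 values. Gpd1 lies lower in EOM from day 7 and Fbp2 at every age, Hk1 lies higher in EOM, and the points of Aldoa spread widely within single groups.

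Between the muscles, 4 of 18 member probe sets passed the test at day 0 (1 higher in EOM, 3 lower), when 6.32% of all probe sets did (3.93% higher, 2.4% lower). At day 7, 4 passed, all lower in EOM, against 4.97% of all probe sets in either direction (3.33% higher, 1.65% lower). At day 14, 5 passed (2 higher, 3 lower; 4.91% of all, with 2.61% higher and 2.31% lower), and at day 21, 3 passed (1 higher, 2 lower; 4.03% of all, with 3.48% higher and 0.554% lower). The count was 9 at day 28 (3 higher, 6 lower; 11.8% of all, with 7.64% higher and 4.18% lower) and 8 at day 45 (3 higher, 5 lower; 10.6% of all, with 6.91% higher and 3.69% lower). The median difference over the 18 probe sets ran from -0.46 at day 21 to -0.01 at day 0, beside 0.08 and 0.05 over all tested probe sets at those ages. The lower calls came from Gpd1, Fbp2, Pfkfb1 and Eno3 and 1 probe set of Hk1, and the higher ones from Hk1 and Hk2, apart from 1 of the 2 at day 14, which was the Aldoa probe set, whose values are not read as a transcript level. Without EOM array 2 at day 21 the count at that age was 5, and without EOM array 3 or leg array 1 it was 1. Without EOM array 1 or 2 at day 7 it was 2 at that age.

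**Figure D2:**
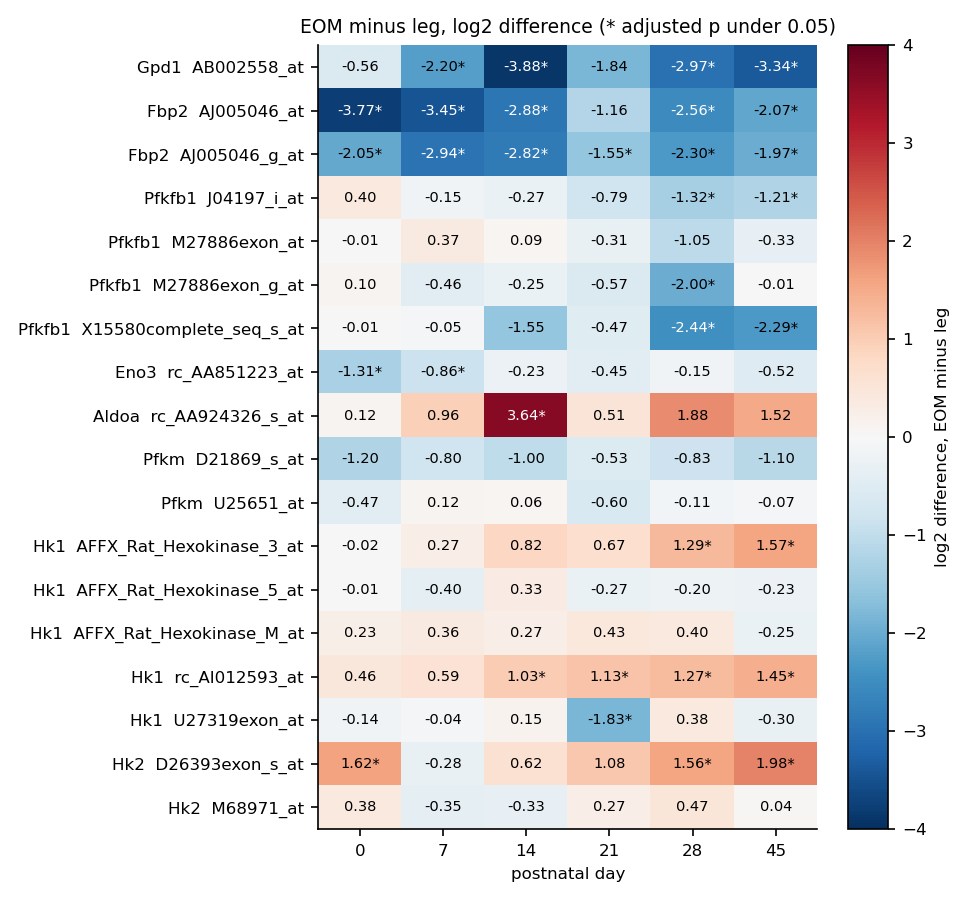
Log2 difference of EOM minus leg for the 18 probe sets (rows) at the 6 ages (columns), in red where EOM was higher and blue where it was lower, with an asterisk where the limma adjusted p was under 0.05. The rows of Gpd1 and Fbp2 are blue at every age, and 1 of the 5 Hk1 rows is red at every age.

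Gpd1, the cytosolic glycerol-3-phosphate dehydrogenase, was low at birth in both muscles, rose in leg between days 7 and 14, and was lower in EOM at days 7, 14, 28 and 45. At day 0 it read 219.6, 152 and 149 in EOM and 220.3, 209 and 349 in leg, with overlapping groups. At day 7 the EOM arrays gave 155, 141 and 129, and the leg arrays gave 436, 1324 and 472. At day 14 they gave 426, 351 and 144 in EOM and 4189, 6013 and 2705 in leg. The groups no longer overlapped from day 7 on. At day 28 the EOM values were 603, 657 and 1074 and the leg values 5280.0, 6897 and 5609.6, and at day 45 they were 286, 455 and 1552 in EOM and 6239, 5838 and 5799 in leg. The 3 leg arrays of day 45 were nearly alike, while the EOM arrays were spread widely, with array 3 the highest.

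The EOM minus leg difference of Gpd1 was -3.88 ± 0.65 (adjusted p = 0.000224) at day 14, -2.97 ± 0.65 (adjusted p = 0.00231) at day 28 and -3.34 ± 0.65 (adjusted p = 0.000739) at day 45, about 14.7-fold, 7.83-fold and 10.2-fold lower in EOM. At day 7 it was -2.20 ± 0.65 (adjusted p = 0.0449), a call that ended without any single array of the 2 groups (adjusted p from 0.0611 to 0.293). At day 21 the EOM arrays gave 3439, 4388 and 258 and the leg arrays 6281, 6317 and 4491, so that EOM arrays 1 and 2 came close to leg and array 3 did not. The difference there was -1.84 ± 0.65 (adjusted p = 0.116). It was -2.40 without EOM array 1 (adjusted p = 0.0614), -2.58 without EOM array 2 (adjusted p = 0.0209) and -0.54 without EOM array 3 (adjusted p = 0.725), so its size turned on the arrays kept. EOM array 3 alone lay -4.45 from the leg mean. Setting this single array against leg was decided once the data had been seen, and such values are given here and below with no test.

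Over the whole period Gpd1 rose by 4.56 ± 0.65 (adjusted p = 2.06e-06) in leg, about 23.6-fold, with its called step between days 7 and 14 (2.66 ± 0.65, adjusted p = 0.0147). In EOM the day 45 minus day 0 difference was 1.78 ± 0.65 (adjusted p = 0.0368). This was 1.08 (adjusted p = 0.254) without EOM day 45 array 3, and it did not pass without EOM day 0 array 2 or 3 either (adjusted p = 0.095 and 0.094). The EOM change minus the leg change was -2.78 ± 0.92 (adjusted p = 0.0972), which missed the threshold. It was -3.48 (adjusted p = 0.0265) without EOM day 45 array 3. Adipocytes also express Gpd1, and the summed intensity of 6 adipocyte markers overlapped between the muscles at day 45 (29762 to 32936 in EOM, 25721 to 32722 in leg). At day 21 that sum was 31667, 32051 and 33981 on EOM arrays 1 to 3. Single markers went both ways at day 45, when Lpl was lower in EOM (-0.58, adjusted p = 0.0109) and Scd higher (2.97, adjusted p = 0.000163). The part of adipocytes in the Gpd1 result was not tested.

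Fbp2, the muscle fructose-1,6-bisphosphatase, was the member whose leading probe set lay lower in EOM at all 6 ages with no overlap of the arrays. At birth this probe set read 607, 586 and 614 in EOM and 1805, 3654 and 2333 in leg. At day 7 it read 1156, 811 and 951 in EOM and 7992, 8727 and 5835 in leg. The highest single leg value came at day 14, when the arrays gave 1202, 1348 and 1124 in EOM and 7925, 10638 and 7650.3 in leg. At day 28 the arrays gave 1357, 1504 and 1196 in EOM and 5957, 7078 and 6918 in leg, and at day 45 1464, 930.1 and 1628 in EOM and 3015, 6136 and 7227 in leg. Leg array 1 of day 45 lay apart from its other two.

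The differences of this Fbp2 probe set were -2.05 ± 0.35 (adjusted p = 0.00014) at day 0, -2.94 ± 0.35 (adjusted p = 1.12e-06) at day 7, -2.82 ± 0.35 (adjusted p = 2.5e-06) at day 14, -2.30 ± 0.35 (adjusted p = 2.44e-05) at day 28 and -1.97 ± 0.35 (adjusted p = 0.000228) at day 45. These 5 calls held under every alternative run. At day 21 the EOM arrays read 2446, 4338 and 1004, again with arrays 1 and 2 nearer to leg, which read 7993, 6931 and 4854. The difference of -1.55 ± 0.35 (adjusted p = 0.0073) no longer passed without EOM array 3 (-0.99, adjusted p = 0.133) or without leg array 1 (-1.40, adjusted p = 0.0593).

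The second Fbp2 probe set followed the leading one, with a correlation of 0.961 over the 36 arrays. It lay under the floor on all 3 EOM arrays of day 0 and read 1168, 1579 and 1412 in leg, so it was at least 13.6-fold lower in EOM (adjusted p = 2.55e-07). Its differences were -3.45 ± 0.43, -2.88 ± 0.43, -2.56 ± 0.43 and -2.07 ± 0.43 at days 7, 14, 28 and 45, which all passed, and -1.16 ± 0.43 (adjusted p = 0.136) at day 21. The day 45 call ended with only the groups compared in the fit (adjusted p = 0.137). The day 21 value was -1.23 without EOM array 1 (adjusted p = 0.201), -1.69 without array 2 (adjusted p = 0.0181) and -0.56 without array 3 (adjusted p = 0.623), and EOM array 3 alone lay -2.36 from the leg mean.

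By age, the leading Fbp2 probe set rose in leg from day 0 to day 7 (1.58 ± 0.35, adjusted p = 0.0145), and no later step in leg and no step in EOM passed. From day 0 to day 45 it was higher by 1.11 ± 0.35 (adjusted p = 0.0137) in EOM and 1.04 ± 0.35 (adjusted p = 0.0207) in leg. The EOM call ended without EOM day 45 array 3 (0.95, adjusted p = 0.0662). The leg call ended without day 0 array 1 or 3 or day 45 array 2 or 3 (adjusted p from 0.0599 to 0.114). The difference between the muscles in this change was 0.07 ± 0.49, with an interval of -0.93 to 1.08 at 95%.

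Pfkfb1 encodes a bifunctional enzyme that makes and removes fructose 2,6-bisphosphate, an activator of phosphofructokinase, and its gene gives rise to liver, muscle and fetal mRNAs in rat. The window that RefSeq gives for its start (GRCr8, chrX:22941926-22942225, plus strand, from 250 bases before to 50 after the start) is printed 5′ to 3′, because its leading probe set rose in leg. Capitals mark the 3 matches to the E-box CANNTG, the letters that myogenic factors bind. Which of the mRNAs starts there was not tested.
Pfkfb1: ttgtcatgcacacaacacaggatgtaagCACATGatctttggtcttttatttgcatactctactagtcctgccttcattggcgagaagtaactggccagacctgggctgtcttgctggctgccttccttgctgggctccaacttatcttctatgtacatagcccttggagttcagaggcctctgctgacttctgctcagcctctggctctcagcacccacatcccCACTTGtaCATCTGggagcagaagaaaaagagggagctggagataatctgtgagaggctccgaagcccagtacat

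The leading Pfkfb1 probe set did not part between the muscles until day 14. It read 394, 286 and 171 in EOM and 249, 193 and 407 in leg at day 0, and 193, 289.6 and 121 in EOM and 187, 319.8 and 126 in leg at day 7. At day 14 it read 217, 588 and 249 in EOM and 974, 1113 and 727 in leg. These last groups did not overlap, with a difference of -1.55 ± 0.49 (adjusted p = 0.0646), which passed with the replicate number as a block (adjusted p = 0.0404) and without EOM array 2 (-1.99, adjusted p = 0.0277). At day 21 the values were 1244, 1300.1 and 665 in EOM and 1238, 1510.4 and 1542 in leg, with a difference of -0.47 ± 0.49 (adjusted p = 0.716).

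At day 28 the leading Pfkfb1 probe set gave 205, 461 and 852 in EOM and 2202, 2466 and 2367 in leg, and at day 45 1096, 307 and 1181 in EOM and 3252, 3706 and 3858 in leg. The leg arrays agreed closely at both ages and all lay above the widely scattered EOM arrays. The differences were -2.44 ± 0.49 (adjusted p = 0.000899) and -2.29 ± 0.49 (adjusted p = 0.00202). The day 45 call ended with only the groups compared in the fit (adjusted p = 0.0617). In leg the probe set rose from day 7 to day 14 (2.24 ± 0.49, adjusted p = 0.00496) and by 3.74 ± 0.49 (adjusted p = 4.62e-07), 13.4-fold, from day 0 to day 45. Leg means were higher at each later age from day 7 on, though no single step after day 14 passed. In EOM the day 45 minus day 0 difference of 1.46 ± 0.49 (adjusted p = 0.0225) was lost without EOM day 0 array 3, EOM day 45 array 1 or EOM day 45 array 3 (adjusted p from 0.113 to 0.126).

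The other Pfkfb1 probe sets were dim. The probe set J04197_i_at followed the leading one, with a correlation of 0.816 over the arrays. It was lower in EOM at days 28 and 45, with differences of -1.32 ± 0.38 (adjusted p = 0.0192) and -1.21 ± 0.38 (adjusted p = 0.0357), and it rose in leg by 2.34 ± 0.38 (adjusted p = 1.18e-05). The day 28 call ended without EOM array 2 or leg array 1 (adjusted p = 0.0844 and 0.0642). At day 45 it ended without EOM array 3 (-0.74, adjusted p = 0.232) and without any single leg array (adjusted p from 0.0681 to 0.0909).

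At day 28 M27886exon_g_at read 70.6, 109.6 and 52.4 in EOM and 409, 663 and 263 in leg, a difference of -2.0 ± 0.48 (adjusted p = 0.00498) with 2 EOM arrays at the floor. In EOM it rose from that low point by 2.17 ± 0.48 (adjusted p = 0.0474) at day 45, when both muscles lay close together (-0.01 ± 0.48). From day 0 to day 45 it rose by 1.52 ± 0.48 (adjusted p = 0.0153) in EOM and 1.63 ± 0.48 (adjusted p = 0.00896) in leg. The EOM call ended without EOM day 0 array 2 or 3 or EOM day 45 array 2 (adjusted p from 0.0653 to 0.101), and the leg call without leg day 0 array 2 (adjusted p = 0.0636). The fourth, M27886exon_at, correlated with the leading one at 0.26 and passed no comparison between the muscles.

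Eno3, the muscle enolase, was bright everywhere and differed between the muscles early. Its promoter window is shown because of this early difference (RefSeq, GRCr8, chr10:55868936-55869235, plus strand, 250 bases before to 50 after the start). It is printed 5′ to 3′ with its 2 E-boxes in capitals.
Eno3: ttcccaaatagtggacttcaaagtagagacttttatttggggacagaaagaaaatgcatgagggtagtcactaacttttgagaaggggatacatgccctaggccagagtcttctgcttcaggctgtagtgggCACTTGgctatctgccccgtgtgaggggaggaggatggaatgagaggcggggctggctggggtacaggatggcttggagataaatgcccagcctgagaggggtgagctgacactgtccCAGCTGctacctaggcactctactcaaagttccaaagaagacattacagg

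At day 0 Eno3 read 7226, 8274 and 8803 in EOM and 19214, 19844 and 21030.5 in leg, and at day 7 11944, 11290.0 and 18229.6 in EOM and 23753, 22804 and 27036 in leg. At both ages every EOM array lay below every leg array, with differences of -1.31 ± 0.20 (adjusted p = 2.53e-05) and -0.86 ± 0.20 (adjusted p = 0.00603). The day 7 call ended without EOM array 1 (-0.77, adjusted p = 0.051) or EOM array 2 (-0.73, adjusted p = 0.0669). Of 9 skeletal muscle markers, Myh4 (-1.87, adjusted p = 0.00106), Tnni2 (-0.79, adjusted p = 0.0127) and Des (-0.91, adjusted p = 0.0391) were also lower in EOM at day 0, and Ckm was higher (4.64, adjusted p = 0.0383). For Ckm 2 of the 3 leg arrays of day 0 lay under the floor, which sets the size of this value. Ckm read 8497, 9087 and 8153 in EOM and 3987, 0.2 and 0.1 in leg at day 0. At day 7 it read 9798, 67.3 and 5042 in EOM and 0.1, 0.2 and 699.9 in leg. These Ckm values are not read as transcript levels, and they enter the sums below. At day 7 Myh4 (-2.84, adjusted p = 5.04e-06) and Myh7 (-0.71, adjusted p = 0.0487) were lower in EOM. The 9 markers summed to 49317 to 64912 in EOM and 54194 to 82015 in leg at day 0, and to 48100 to 69661 in EOM and 72346 to 87568 in leg at day 7. The part of the markers in the Eno3 result was not tested. At day 14 the Eno3 values met, at 14371, 19794 and 25353 in EOM and 23003, 21113 and 24188 in leg.

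At day 21 Eno3 gave 25671, 22224 and 21260.5 in EOM and 34027, 31256 and 29000.0 in leg, and at day 28 25945, 20526 and 32219 in EOM and 24428, 31819 and 29872 in leg. At day 45 it gave 18194, 19138 and 22665 in EOM and 32027, 29647 and 24756 in leg. EOM again lay below leg without overlap at days 21 and 45, yet the differences of -0.45 ± 0.20 (adjusted p = 0.235) and -0.52 ± 0.20 (adjusted p = 0.0875) did not pass. In EOM Eno3 rose from day 0 to day 7 (0.74 ± 0.20, adjusted p = 0.0427) and by 1.30 ± 0.20 (adjusted p = 5.08e-06) from day 0 to day 45, 2.47-fold. In leg the corresponding value was 0.52 ± 0.20 (adjusted p = 0.0419), which did not pass without any one of leg day 0 arrays 1 to 3 or leg day 45 arrays 1 and 2 (adjusted p from 0.065 to 0.144). It was 0.17 with quantile normalization (adjusted p = 0.577) and 0.55 with arrays scaled to the same median (adjusted p = 0.0967). The difference between these changes was 0.78 ± 0.28 (adjusted p = 0.128), and with quantile normalization it was 1.01 (adjusted p = 0.0445). Eno3 ranked among the 513 brightest of the 8799 probe sets on every array, with a median rank of 31.

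Pfkm, the muscle phosphofructokinase, gave different pictures with its probe sets. The leading one, U25651_at, read between 5863 and 32203 in EOM and between 7913 and 19595 in leg, with medians of 10166 and 12400. It passed no comparison between the muscles or ages, and its interval at day 45 was -0.89 to 0.75. The single value of 32203, on EOM day 45 array 3, lay far above the other two EOM arrays of that age (5863 and 9095).

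The other probe set, D21869_s_at, had a lower mean in EOM than in leg at every age. At day 0 it read 2477, 2176 and 822 in EOM and 4544, 2907 and 4067 in leg, and at day 14 4575, 5713 and 1451 in EOM and 6363, 11783 and 4072 in leg. At day 45 it read 4063, 6878 and 4983 in EOM and 10501, 14292 and 9144 in leg. The groups were separate at days 0, 28 and 45, and the differences of -1.20 ± 0.53 (adjusted p = 0.24), -0.83 ± 0.53 (adjusted p = 0.366) and -1.10 ± 0.53 (adjusted p = 0.213) at these ages did not pass. At day 14 the difference was -1.0 ± 0.53 (adjusted p = 0.348), and it passed with the replicate number as a block (adjusted p = 0.0358). EOM lay below the leg array of the same number in 9 of 9 pairs at days 7, 14 and 21, which no label says were paired. The share of all probe sets that do so was not computed, and nothing is read from this count. At day 21 the difference was -0.90 without EOM array 1 and -0.93 without array 2 (adjusted p = 0.519 and 0.491). Without EOM array 3 it was 0.23 (adjusted p = 0.908).

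Array 3 was the lowest of its group for D21869_s_at in 10 of 12 groups, a pattern shared by 3.19% of all tested probe sets. The same held for the leading Hk1 probe set. D21869_s_at rose from day 0 to day 45 by 1.66 ± 0.53 (adjusted p = 0.0169) in EOM and 1.56 ± 0.53 (adjusted p = 0.0238) in leg. The EOM call was lost without EOM day 0 array 3 (1.16, adjusted p = 0.137) or EOM day 45 array 2 (1.45, adjusted p = 0.0718), and the leg call without leg day 0 or day 45 array 2 (adjusted p = 0.0934 and 0.0911). The Pfkm probe sets correlated at 0.128 over the 36 arrays and 0.677 over the 12 group means.

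**Figure D3:**
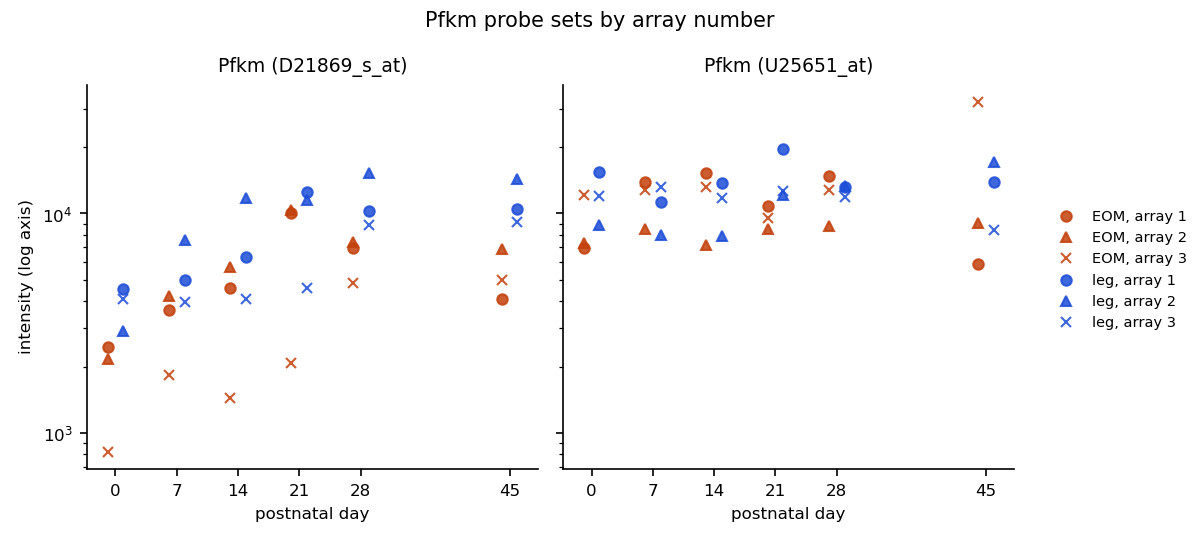
Intensity (log axis) of the Pfkm probe sets against postnatal day, with the symbol showing the array number and the colour the muscle (EOM left of leg at each day). For D21869_s_at the crosses of array 3 lie lowest in 10 of the 12 groups, and U25651_at passed no comparison.

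Hk1, the widely expressed hexokinase that binds to mitochondria, was higher in EOM by its leading probe set, rc_AI012593_at. At day 0 this read 3942, 3935 and 2166 in EOM and 2212, 2539 and 2299.7 in leg, and at day 14 4192, 5188 and 3223 in EOM and 2159.9, 2045 and 1876 in leg. At day 28 it read 4484, 4875 and 4169.9 in EOM and 1998, 1957 and 1647 in leg, and at day 45 5452, 4214 and 3451 in EOM and 1613, 1533 and 1579 in leg. The groups overlapped at day 0 only, where EOM array 3 was the low one.

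The EOM minus leg differences of this Hk1 probe set were 0.46 ± 0.21 (adjusted p = 0.276), 0.59 ± 0.21 (adjusted p = 0.135), 1.03 ± 0.21 (adjusted p = 0.00258), 1.13 ± 0.21 (adjusted p = 0.00138), 1.27 ± 0.21 (adjusted p = 0.000107) and 1.45 ± 0.21 (adjusted p = 2.55e-05) at the 6 ages in order, and those from day 14 on passed. Without EOM day 0 array 3 the first also passed (0.75, adjusted p = 0.0291). The call at day 21 ended with only the groups compared in the fit (adjusted p = 0.104) and held without any single array of that age, and EOM array 3 alone lay 0.96 from the leg mean. The other 3 held under all alternatives. From day 0 to day 45 it fell in leg (-0.58 ± 0.21, adjusted p = 0.0377), a call that ended without any one of the 6 leg arrays (adjusted p from 0.0533 to 0.116) or with quantile normalization (adjusted p = 0.0627). In EOM the difference was 0.41 ± 0.21 (adjusted p = 0.149), and it passed with quantile normalization (0.57, adjusted p = 0.0292) and with arrays scaled to the same median (0.53, adjusted p = 0.0357). The difference between the changes was 0.99 ± 0.30 (adjusted p = 0.0629), and it passed without EOM day 0 array 1 or 2 (adjusted p = 0.0477 and 0.0467) or EOM day 45 array 3 (1.15, adjusted p = 0.0335), and with quantile normalization or arrays scaled to the same median (adjusted p = 0.0274 and 0.021).

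The Hk1 probe sets did not tell one story. The 3′ control probe set correlated with the leading one at 0.787 over the arrays and was likewise higher in EOM at day 28 (1.29 ± 0.32, adjusted p = 0.00606) and day 45 (1.57 ± 0.32, adjusted p = 0.00113). The day 28 call ended without leg array 1 (1.06, adjusted p = 0.0519). With only the groups compared in the fit both calls ended (adjusted p = 0.0695 and 0.166). The 3′ control was also the only one of 18 member probe sets whose change from day 0 to day 45 differed between the muscles past the test, by 1.59 ± 0.45 (adjusted p = 0.0412), beside 3.72% of all probe sets in either direction and 2.26% higher. That call ended without any one of 8 of the 12 arrays (adjusted p from 0.0527 to 0.129) or with only the groups compared (adjusted p = 0.224). In leg this probe set fell from day 0 to day 45 (-1.23 ± 0.32, adjusted p = 0.00299, and 0.0622 with only the groups compared). At day 45 it read 737, 835 and 430.1 in EOM and 296, 280.0 and 122 in leg, and at day 0 559.5, 579.5 and 391 in EOM and 419, 541 and 580.1 in leg. The middle and 5′ control probe sets scattered by up to 2.84 and 1.95 log2 units within a group, correlated with the leading one at 0.136 and 0.034, and passed no comparison.

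The fifth Hk1 probe set, U27319exon_at, went the other way at day 21, when it read 288, 326 and 232 in EOM and 1474, 663 and 1009 in leg. The difference of -1.83 ± 0.43 (adjusted p = 0.0117) ended without EOM array 3 (-1.70, adjusted p = 0.0884) or leg array 1 (-1.55, adjusted p = 0.0941), and EOM array 3 alone lay -2.10 from the leg mean. Its correlation with the leading probe set was -0.182. Hk1 is made by many cell types. The summed intensity of 7 markers of Schwann cells and axons was higher in EOM at every age, with no overlap of the arrays. It was 25790 to 26679 in EOM and 18643 to 23535 in leg at day 0. At day 28 it was 28182 to 35572 in EOM and 7624 to 10266 in leg. At day 45 these markers summed to 22544 to 34427 in EOM and 6778 to 12447 in leg. Mbp, Pmp22, Prx, Cnp and Nefm passed the limma test at day 45, all higher in EOM. Sox10 (adjusted p = 0.128) and Nefl (adjusted p = 0.0729) did not pass. Sox10 lay under the floor on all 3 leg arrays and on 1 EOM array of day 45. The part of these cells in the Hk1 result was not tested.

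**Figure D4:**
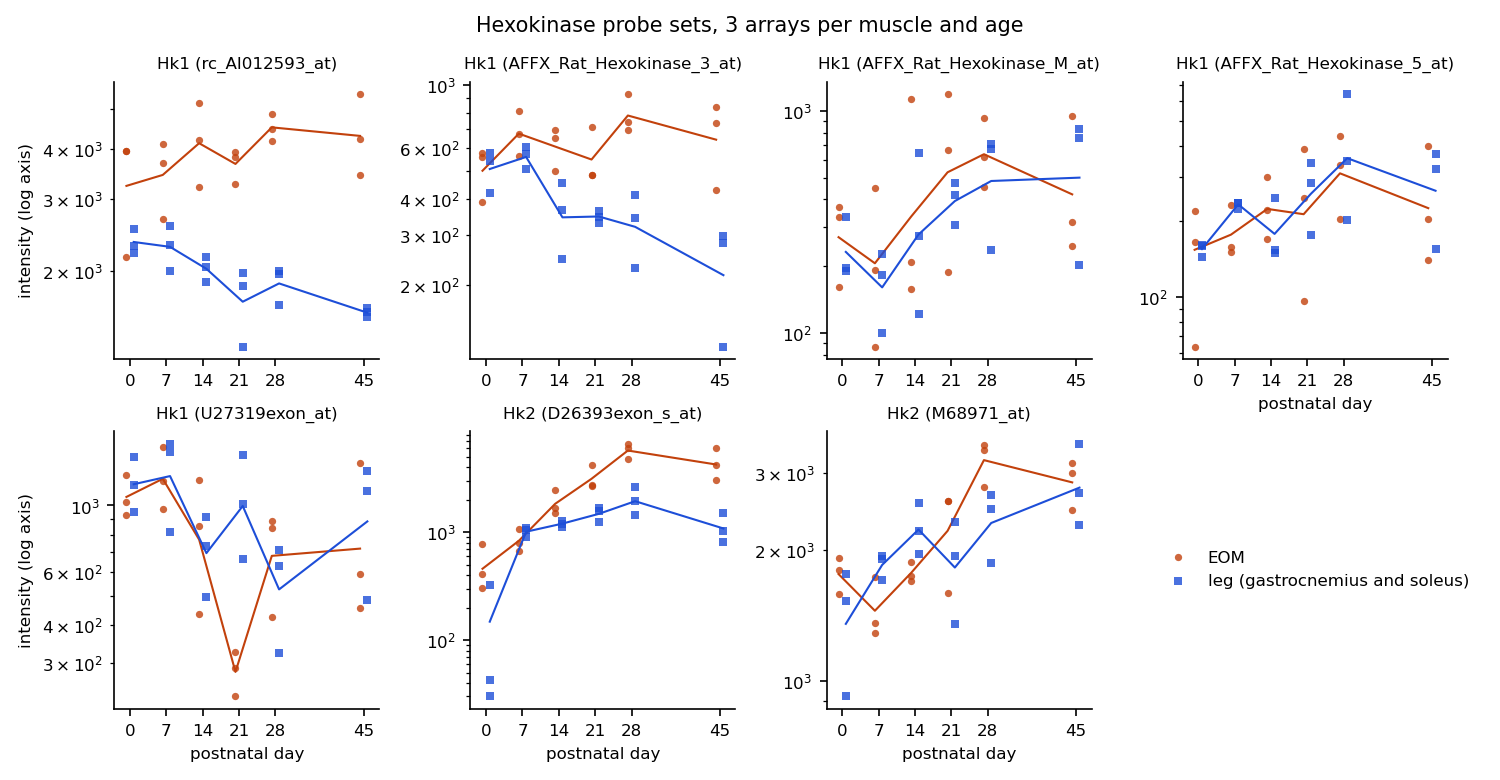
Intensity (log axis) of the 5 Hk1 and 2 Hk2 probe sets against postnatal day, with 1 point per array and lines through the group means (EOM circles, leg squares). EOM lies above leg for rc_AI012593_at and, from day 14, for the 3′ control probe set, while the other 3 Hk1 probe sets show no steady order of the muscles.

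Hk2, the insulin-regulated hexokinase of muscle, rose with age in both muscles. Its promoter window is given because this rise was shared by both muscles and both of its probe sets (RefSeq, GRCr8, chr4:116841226-116841525, minus strand, 250 bases before to 50 after the start). It is printed 5′ to 3′ along the gene with its E-box in capitals.
Hk2: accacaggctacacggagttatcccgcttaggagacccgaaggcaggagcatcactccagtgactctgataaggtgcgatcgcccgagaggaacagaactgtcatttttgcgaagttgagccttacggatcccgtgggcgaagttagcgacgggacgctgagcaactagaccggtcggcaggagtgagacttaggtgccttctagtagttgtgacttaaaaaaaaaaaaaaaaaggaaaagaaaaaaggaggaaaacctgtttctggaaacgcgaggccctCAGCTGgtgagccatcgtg

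The probe set D26393exon_s_at of Hk2 gave the larger changes. At day 0 it read 412, 301 and 769.6 in EOM and 30, 43.0 and 321 in leg, with 2 leg arrays under the floor. At day 7 it read 791, 673 and 1074 in EOM and 1087, 902 and 1054 in leg. At day 28 the arrays gave 4768, 5984 and 6575 in EOM and 1433, 1941 and 2609 in leg, and at day 45 6055, 3026 and 4180.5 in EOM and 809.5, 1021 and 1522 in leg. EOM and leg overlapped at days 0 and 7 and were separate from day 14 on, with EOM higher.

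The differences of D26393exon_s_at were 1.56 ± 0.36 (adjusted p = 0.00335) at day 28 and 1.98 ± 0.36 (adjusted p = 0.000324) at day 45. At day 21 the difference was 1.08 ± 0.36 (adjusted p = 0.0869), and it passed with the replicate number as a block (adjusted p = 0.0236). The call at day 0 (1.62 ± 0.36, adjusted p = 0.00308) rests on the 2 leg arrays under the floor, and it ended with only the groups compared in the fit (adjusted p = 0.212). From day 0 to day 45 the probe set rose by 3.22 ± 0.36 (adjusted p = 3.48e-08) in EOM and 2.86 ± 0.36 (adjusted p = 2.2e-07) in leg. In leg the called step was between days 0 and 7 (2.77 ± 0.36, adjusted p = 9.12e-06). The floor sets the size of every value that uses leg day 0. With a floor at the 10th percentile the step in leg was 3.5, the day 45 minus day 0 value in leg 3.59 and the day 0 difference 2.36. With a floor at the 30th percentile they were 2.17, 2.27 and 1.03. All 6 passed. In EOM no single step passed, the nearest being days 7 to 14 (1.15 ± 0.36, adjusted p = 0.0521), which passed with a floor at the 30th percentile (adjusted p = 0.02).

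The leading Hk2 probe set, M68971_at, read 1911, 1792 and 1582 in EOM and 1761, 920.1 and 1523 in leg at day 0, and 3161, 2472 and 3004 in EOM and 3501, 2706 and 2286 in leg at day 45. It rose by 0.71 ± 0.23 (adjusted p = 0.018) in EOM and 1.04 ± 0.23 (adjusted p = 0.000606) in leg. The EOM call ended without EOM day 0 array 3 or EOM day 45 array 1 or 3 (adjusted p from 0.0525 to 0.0693). M68971_at passed no comparison between the muscles, and its interval at day 45 was -0.43 to 0.51. At day 14 it read 1740, 1877 and 1692 in EOM and 2203, 2560.5 and 1955 in leg. There every EOM array lay below every leg array, the opposite order to D26393exon_s_at. Its EOM arrays all lay above leg at day 28 only, and its groups overlapped at the other ages. The Hk2 probe sets correlated at 0.642 over the arrays.

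Aldoa, the muscle aldolase, had a single probe set, with the widest scatter within a group of any member. In EOM its values ran from 604.1 to 40157 with a median of 10274, and in leg from 669 to 23067 with a median of 1057. The largest range within a group was 6.05 log2 units, at day 45 in EOM, where the arrays read 607, 821 and 40157. At day 0 the arrays read 12664, 12199.5 and 8348 in EOM and 23067, 6503 and 6685 in leg. At day 14 they read 18605, 4151 and 18594 in EOM and 1035, 669 and 1063 in leg, the only age at which the groups did not overlap.

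On 11 of the 36 arrays the Aldoa value lay within 0.2% of that of Acta1, the skeletal muscle actin, on the same array. These were 2 EOM arrays, 1 each at days 21 and 45, and 9 leg arrays, namely 1 at day 14, 2 at day 21, 3 at day 28 and 3 at day 45. The shared values ran from 607 to 1064. On 9 of these arrays the middle Gapdh control probe set also lay within 0.5% of Acta1. Only 7 of the 8798 other probe sets, Aldoa among them, met Acta1 this closely on 3 or more arrays, and no other member did so on any array. Different transcripts therefore carried the same number on these arrays, and the low Aldoa values are not read here as a level of its transcript. The cause was not tested.

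The limma fit gave Aldoa a difference of 3.64 ± 1.07 (adjusted p = 0.0422) at day 14 and of -3.41 ± 1.07 (adjusted p = 0.014) between days 45 and 0 in leg. No fold or direction for the gene is drawn from them. The first call ended without any one of EOM arrays 1 and 3 or leg arrays 1 to 3 of that age (adjusted p from 0.0706 to 0.164), and the second without leg day 0 array 1 (adjusted p = 0.0751). Without EOM day 45 array 3 the EOM value between days 45 and 0 was -3.95 (adjusted p = 0.00143), beside -2.0 ± 1.07 (adjusted p = 0.163) with it.

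**Figure D5:**
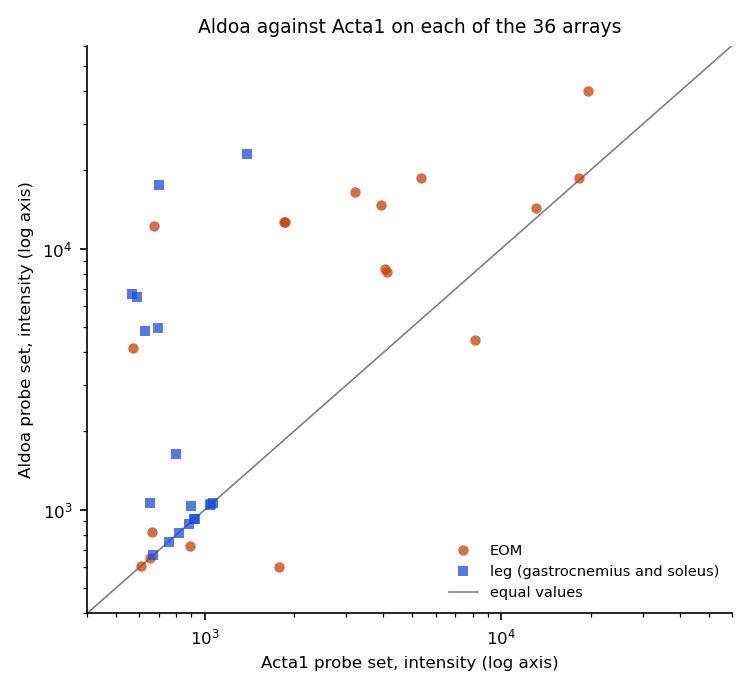
Intensity of the Aldoa probe set against that of the Acta1 probe set on the same array (both log axes), 1 point per array, with EOM as circles, leg as squares and a line of equal values. The 11 arrays on which the values coincide sit on the line between 607 and 1064, and 9 of them are leg arrays.

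Over age, 9 of 18 member probe sets rose from day 0 to day 45 in EOM, where 31.3% of all probe sets passed in either direction (12.9% higher, 18.4% lower). In leg 9 rose and 3 were lower, where 32.8% of all passed, 14.4% higher and 18.5% lower. Of the 3 lower ones 2 were of Hk1, and 1 was the Aldoa probe set, from which no direction is drawn. Without EOM day 0 array 3 the EOM count was 4. The median difference over the members was 0.72 in EOM and 0.91 in leg, beside -0.04 and 0.06 over all tested probe sets. A test over all 6 ages passed for 10 member probe sets in EOM (31.3% of all) and 8 in leg (35.9% of all), and a test of a different course in the muscles passed for 2 (4.04% of all), the leading Pfkfb1 probe set and D26393exon_s_at of Hk2. Of 180 steps between neighbouring ages, 10 per probe set, 6 passed. Of all probe sets, the shares that passed at the 5 steps in order of age were 1.87%, 6.22%, 0.599%, 0.105% and 0.21% in EOM and 0.824%, 3.9%, 0.659%, 0.15% and 1.96% in leg. These 6 were the steps given above for Gpd1, Fbp2, Pfkfb1 (2 probe sets), Eno3 and Hk2. There were 11 without EOM day 21 array 3 and 2 without leg day 7 array 1.

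Of 31 other genes of glycolysis, gluconeogenesis and glucose transport on a chosen list, 16 had a tested probe set. Gapdh had 6 probe sets, of which none was tested. The manufacturer's control probe sets, the middle Gapdh one among them, were kept for members only. Between the muscles 3 of these passed at day 0, 2 at day 7, 0 at days 14 and 21, 3 at day 28 and 4 at day 45, beside 6.32%, 4.97%, 4.91%, 4.03%, 11.8% and 10.6% of all probe sets at the 6 ages. With no call by limma at days 14 and 21, 4 and 6 of the 16 had an unadjusted p under 0.05, as did 1118 and 1080 of all 6675 probe sets. Aldoc, the aldolase of brain, was higher in EOM at day 0 (3.03 ± 0.51, adjusted p = 0.000121), day 7 (1.83 ± 0.51, adjusted p = 0.0299) and day 45 (1.82 ± 0.51, adjusted p = 0.0183). Slc2a1, the widespread glucose transporter, was higher in EOM at day 0 (1.57 ± 0.33) and day 45 (1.25 ± 0.33). Pgam2, the muscle phosphoglycerate mutase, was lower in EOM at day 0 (-0.97 ± 0.16) and day 7 (-0.94 ± 0.16), the ages at which Eno3 was. Ldhb, the heart lactate dehydrogenase subunit, was higher in EOM at day 28 (1.55 ± 0.41), as was Slc2a4, the insulin-regulated glucose transporter (0.87 ± 0.20). Pgam1, a phosphoglycerate mutase, was higher in EOM at day 28 (0.68 ± 0.16) and day 45 (0.58 ± 0.16), and at day 45 Pgk1, the phosphoglycerate kinase, was lower (-0.51 ± 0.16).

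With age, 5 of these 16 genes rose and 1 fell in EOM, and 4 rose and 3 fell in leg. These 6 and 7 of 16 stand beside 31.3% and 32.8% of all probe sets, and nothing is read from the counts about these genes as a group. Slc2a4 rose in both muscles, by 2.92 ± 0.20 (adjusted p = 1.14e-12) in EOM and 2.81 ± 0.20 (adjusted p = 2.17e-12) in leg. Pfkl, the liver phosphofructokinase, fell in both, with differences of -1.06 ± 0.35 in EOM and -1.68 ± 0.35 in leg. In EOM Ldhb and Pgam2 rose by 1.73 ± 0.41 and 1.34 ± 0.16, and in leg Aldoc rose by 1.78 ± 0.51 and Pfkp, the platelet phosphofructokinase, fell, with a difference of -0.78 ± 0.23.

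The genes most like each member over the 12 group means are given as a description, out of 3881 genes that share the same arrays. For Gpd1 they were Gyg1, the glycogenin (r = 0.978), Slc37a4, a glucose-6-phosphate transporter (0.973), and Capza2, an actin capping subunit (0.97). For Fbp2 they were Cacng1, a calcium channel subunit of muscle (0.96), Polb (0.953) and Nexn (0.948). For Pfkfb1 they were Homer1 (0.965), Vldlr (0.962) and Adk (0.96), and for Eno3 Pygm, the muscle glycogen phosphorylase (0.958), Rpl7a (0.952) and Ctbp1 (0.949). Hk1 was most like Ndrg4 (0.961), Nucb1 (0.955) and Pam (0.951). The highest values were lower for Hk2 (0.913 with Masp1) and Pfkm (0.815 with Pkm). For Aldoa the highest was 0.948 with Stx5. Among the members, Gpd1 and Pfkfb1 were the closest pair (0.904).

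RefSeq gave promoter windows for 6 of the 8 genes, with more than 1 start for Aldoa and Hk1. The E-box CANNTG, which reads alike on both strands, was found in 72.1% of 33469 rat promoter windows of the same length, so that its matches in the windows printed above are common. The GC box GGGCGG, searched on both strands, was in 33.1% of them and in none of the 3 windows printed. The MEF2 consensus was in 3.29% of all windows and, among those of the members, in 1 of 3 windows of Aldoa. A match is a stretch of letters and not a measured site.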

How the data were processed

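Total RNA was hybridised to Affymetrix RG-U34A arrays, per the labels. Each array column of the deposited file gives an intensity for every probe set, already scaled by the authors, since the 2% trimmed means of all arrays lie between 1501 and 1502. The sources used here do not name the software that summarised the probes. Medians of the arrays ran from 418.7 to 652.2, and the number of arrays limits the precision. Groups, ages and replicate numbers came from the labels.

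A floor was set at the overall 20th percentile (100.9), after which values were turned to log2 and kept where they exceeded the 40th percentile (320.4) on 3 or more arrays. Of the manufacturer's control probe sets, 56 were left out, and the 3 of Hk1 were kept as members. limma 3.58.1 in R 4.3.3 fitted 12 group means to 36 arrays with a trended variance prior and 24 residual degrees of freedom, and was tested on simulated data. Figures used matplotlib 3.10.9. Every member probe set is named, with up to 4 of the other pathway genes per comparison (the largest differences past the threshold) and the 3 genes most like each member.

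The members and lists were chosen with earlier results of these data known. Alternatives covered floors, filters, scaling, variance priors, the groups fitted, a replicate block and left-out arrays. Same-numbered EOM and leg arrays correlated, as deviations from group means, at 0.169, 0.131 and 0.296 at day 7, 0.114, 0.105 and 0.165 at day 14 and 0.101, 0.154 and 0.369 at day 21, and not all pairs passed 0.1 at the other ages. Arrays of the same number in different groups, over all ages, had median correlations of 0.0827, 0.0707 and 0.15 for numbers 1 to 3. Pair values near these do not show that samples were paired, and no label states it. The numbers were taken to pair the samples at days 7, 14 and 21 by the cut at 0.1 alone.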

Additional observations from a re-analysis of the deposited data

Results flagged for a closer look

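The 3′ control probe set of Hk1 changed differently in the muscles between days 0 and 45, by 1.59 on the log2 scale (EOM change minus leg change, limma adjusted p = 0.0412). It no longer passed without any one of 8 of the 12 arrays concerned, with adjusted p-values from 0.0527 to 0.129. With only the groups compared in the fit the adjusted p was 0.224.

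The course over the 6 ages differed between the muscles for the leading Pfkfb1 probe set (moderated F = 5.08, limma adjusted p = 0.0448) and for the Hk2 probe set D26393exon_s_at (F = 5.29, adjusted p = 0.0366). These were 2 of 18 member probe sets, beside 4.04% of all tested. For the Hk2 probe set, with 2 leg arrays of day 0 under the floor, the adjusted p was 0.07 with a floor at the 10th percentile and 0.0132 at the 30th. The count ran from 0 to 5 when single arrays were left out.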

How the results depend on the processing

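Among differences called in the fit reported or under the alternative, none changed sign under the alternatives run. Differences called in neither were not compared for sign. That of Pfkm D21869_s_at at day 21, with group means of 12.55 in EOM and 13.09 in leg, was 0.23 without EOM array 3. Counts of member probe sets that differed between the muscles were 2 at day 7, 0 at day 21 and 4 at day 45 with only the groups compared in the fit. Leaving out the arrays numbered 3 was added once the data had been seen, and the counts were then 1 at day 21, 5 for day 45 against day 0 in EOM, 11 for the steps between ages, 3 for the difference between the muscles in the change with age and 4 for a different course. The count for that difference in change, 1 in the fit reported, was 4 with a replicate block, 3 with quantile normalization or a floor at the 30th percentile, 2 with a floor at the 10th percentile or arrays scaled to the same median, and 0 with only the groups compared. With the block it held Gpd1 (adjusted p = 0.046), the leading Pfkfb1 probe set (0.0418) and the leading Hk1 probe set (0.0292) among others. The block pairs arrays by number, and at days 0 and 45 not all pairs passed the cut at 0.1. Nothing is read from these block values. The count for a different course, 2 in the fit reported, was 0 with arrays scaled to the same median, with no filter or without a trended prior, and 4 with a robust prior. The cause of these shifts was not tested.

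With single arrays left out in turn, the counts ran from 4 to 5 at day 0, 2 to 3 at day 7, 4 to 6 at day 14, 1 to 5 at day 21, 7 to 9 at day 28 and 7 to 8 at day 45. They ran from 4 to 10 in EOM and 8 to 10 in leg for day 45 against day 0, from 0 to 4 for the difference in that change, from 9 to 12 in EOM and 7 to 11 in leg over all ages, from 0 to 5 for a different course and from 2 to 11 for the steps. Over the differences of single probe sets called in the fit reported or under the alternative, 270 values kept their side of the threshold with an array left out, 66 lost it and 17 gained it, and under the other alternatives 506 kept it, 47 lost it and 31 gained it. The block also brought the change of the leading Hk1 probe set in EOM (adjusted p = 0.0362) and Pfkm D21869_s_at past the threshold at day 0 (adjusted p = 0.0108) and day 45 (0.0138) and took J04197_i_at of Pfkfb1 out of it at day 45 (0.063). No label pairs arrays by number, and the cut at 0.1 was not met by all pairs at days 0 and 45. Nothing is read from these block values either. With 3 arrays a group and several probe sets near the floor, small differences can be missed.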

Other observations

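The split of the EOM arrays at day 21 was seen beyond the enzymes. Ppp1r1a, an inhibitor of protein phosphatase, read 3224, 3676 and 685 on EOM arrays 1 to 3 by its probe set J05592_at, and 7849 to 8497 in leg. Ampd1, the muscle AMP deaminase, read 10614, 13885 and 3674 in EOM and 17897 to 24534 in leg. Cacng1 read 9193, 12655 and 2772 in EOM and 12509 to 20515 in leg. Of 34 probe sets for which every EOM array lay over 2-fold above every leg array at days 14 and 28, 6 had array 3 over 2-fold above arrays 1 and 2 at day 21 and 0 had the opposite. Of all 6675 tested probe sets, 265 had arrays 1 and 2 above array 3 by that much and 151 the opposite. These probe sets were chosen after their values were seen, and the cause was not tested.

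Deviations of Aldoa from its group means were most like those of Acta1 (r = 0.837 over 36 arrays), followed by COX1 (0.795), Uqcrfs1 (0.791), Cox4i1 (0.778) and Por (0.747), as a description. H19 coincided with Acta1 within 0.2% on 7 arrays, and Ckm and Igf2 on 5 each.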
